A study of Mus musculus with 4 samples.

Results

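The Hox genes were examined in mouse thyroid cells. Members were the rows of the gene table whose symbol is Hox, a cluster letter from a to d and a paralog number, and 39 of the 32285 genes in the table fitted that pattern. Of these, 21 had at least 20 UMIs over the 7 cell classes studied, 12 had 1 to 19 UMIs, and 6 (Hoxa11, Hoxb13, Hoxc10, Hoxc11, Hoxc12 and Hoxd12) had none. In this droplet assay a UMI, a unique molecular identifier, stands for 1 captured transcript.

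The study profiled thyroid cells of C57 mice (C57BL/6 in its methods) at postnatal days 5, 10, 20 and 30 by droplet single-cell RNA sequencing, to follow how the gland forms its follicles. Per the methods of the study, 10 mice were pooled for each age. Each age therefore had 1 library, no difference between ages could be tested, and the mice of a pool cannot be told apart. The mice carried no transgene or treatment that the labels name. Values of the 4 libraries are given below in the order of their labels, day 5, day 10, day 20 and day 30.

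Hox genes encode transcription factors that bind DNA through a homeodomain and mark positions along the body axis. They lie in 4 clusters, and within a cluster the low paralog numbers are active furthest toward the head and the high ones toward the tail. The thyroid follicles bud from the floor of the pharynx, the calcitonin-producing C cells reach the gland through the ultimobranchial bodies of the last pharyngeal pouches, and the connective tissue and mural cells of the neck come largely from neural crest and mesoderm.

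The homeobox, the stretch that encodes the homeodomain, is shown for Hoxb2, which had the most UMIs over the classes, and for Hoxb8, which was chosen after its values were seen because it separated the classes. The sequences come from the GRCm38 genome with the GENCODE annotation, run 5′ to 3′ on the plus strand, and lie in exon 2 of 2 of each gene. Capitals mark the 18 bases that encode the conserved core of the recognition helix, which sits in the major groove of DNA.
Hoxb2, chr11:96352985-96353164: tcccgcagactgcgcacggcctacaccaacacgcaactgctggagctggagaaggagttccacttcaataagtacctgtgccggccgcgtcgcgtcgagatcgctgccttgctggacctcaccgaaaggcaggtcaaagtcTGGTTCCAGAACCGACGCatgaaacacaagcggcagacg
Hoxb8, chr11:96284174-96284353: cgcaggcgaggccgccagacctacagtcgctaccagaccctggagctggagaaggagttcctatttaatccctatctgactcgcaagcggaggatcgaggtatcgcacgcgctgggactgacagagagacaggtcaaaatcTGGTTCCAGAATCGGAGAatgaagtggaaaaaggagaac
Of the 180 bases, Hoxb2 and Hoxb8 shared 112. On chromosome 11 Hoxb8 starts at 96281905 and Hoxb2 at 96350525, so the gene with the higher paralog number comes first on the plus strand. The Hoxa cluster lies on chromosome 6, the Hoxc cluster on chromosome 15 and the Hoxd cluster on chromosome 2.

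Cells were sorted into classes by clustering without the Hox genes, and the classes were named from markers. Follicular cells, named from genes such as Pax8 and Tshr, were split by Mia, a secreted protein gene: 3891 cells had no Mia UMI, 383 had at least 2, and the 348 cells with 1 were in neither group. There were 427 C cells, 3693 fibroblasts, 610 mural cells (smooth muscle and pericytes), 6677 endothelial cells and 354 Schwann cells. All the markers of a class were detected in the C cell, fibroblast, mural, endothelial and Schwann classes. The Schwann class also carried fibroblast markers, at a summed 4618 UMIs per 1000000 UMIs of the class (CPM) against 32603 CPM in fibroblasts, so its Hox values may hold fibroblast transcripts, which was not tested. C cells held a summed 2223 CPM of 6 follicular markers, against 2474 CPM in follicular cells without Mia. That sum leaves out Tg and holds Epcam. Epcam was also among the leading genes of the C cell cluster of 282 cells, so the sum is not particular to follicular cells. The part of follicular transcripts in the Hox values of C cells was not tested.

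The libraries held 54921806 to 89039113 UMIs, and 4820 to 12956 cells each were used. The libraries labelled day 10, day 20 and day 30 shared 97.4% to 98.8% of their cell barcodes with each other's matrices, where such a barcode had a median of 8 to 12 UMIs. H19, an imprinted transcript of immature tissue, was at 62.3, 819, 125 and 2888 CPM in fibroblasts, which is not the order of the ages. With the labels day 5 and day 30 exchanged it would fall with age. In the list of cells the library labelled day 5 had the most barcodes, 15297, and the one labelled day 30 the fewest, 6555, whereas the study describes day 30 as the age with the most cells. The numbers that follow the barcodes in that list run from 1 for the library labelled day 30 to 4 for the one labelled day 5. Whether these labels were exchanged could not be settled, so the libraries are called by their labels and no order over age is read from them. Fibroblasts and endothelial cells from day 10 and day 30 largely fell in other clusters than those from day 5 and day 20. All Hox tests below compare cell classes within the same libraries.

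Each of the 7 classes had Hox transcripts, and immune cells had fewer. Summed over the members, the level was 329 CPM in mural cells, 298 CPM in C cells, 244 CPM in follicular cells with Mia, 166 CPM in endothelial cells, 160 CPM in fibroblasts, 51.8 CPM in follicular cells without Mia and 50.0 CPM in Schwann cells. Neutrophils, with 9 Hox UMIs, were at 15.7 CPM, mast or innate lymphoid cells at 12.8 CPM, macrophages at 8.24 CPM, dendritic cells at 7.97 CPM, B cells at 5.18 CPM and T cells at 4.36 CPM. Free RNA, read from droplets with 10 to 100 UMIs, had 72.5 CPM of Hox transcripts, above follicular cells without Mia and Schwann cells.

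By library, follicular cells without Mia were at 48.8, 54.0, 47.6 and 58.5 CPM, and those with Mia at 253, 322, 244 and 198 CPM. C cells were at 258, 292, 357 and 359 CPM, and mural cells at 221, 366, 287 and 412 CPM. The ranges of C cells and mural cells overlapped, and both stood above the range of follicular cells without Mia in every library. Fibroblasts, at 143, 155, 166 and 175 CPM, and endothelial cells, at 145, 180, 199 and 174 CPM, overlapped each other.

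At least 1 Hox UMI was found in 72.8% of follicular cells with Mia (exact 95% binomial interval 68.1 to 77.2%) and in 31.1% of those without (29.6 to 32.6%), with medians of 15112 and 7362 UMIs a cell. Thinned to 2000 UMIs a cell, the shares were 31.4% and 9.52%. The thinned share was 44.1% in mural cells, 40.2% in C cells, 27.0% in endothelial cells, 26.7% in fibroblasts and 8.87% in Schwann cells. Among immune cells it was 1.62% in macrophages and 0.947% in T cells, below the share in each of the 7 classes. T cells held 48 UMIs of Hoxa7, 47 of them in the library labelled day 20 at 2.20 CPM (1.61 to 2.92), where free RNA was at 0.449 CPM from 1 UMI. Their 41 UMIs of Hoxb4 came to 1.31 CPM, against 6.18 CPM in free RNA. The part of free RNA in the immune values was not tested.

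**Figure D1:**
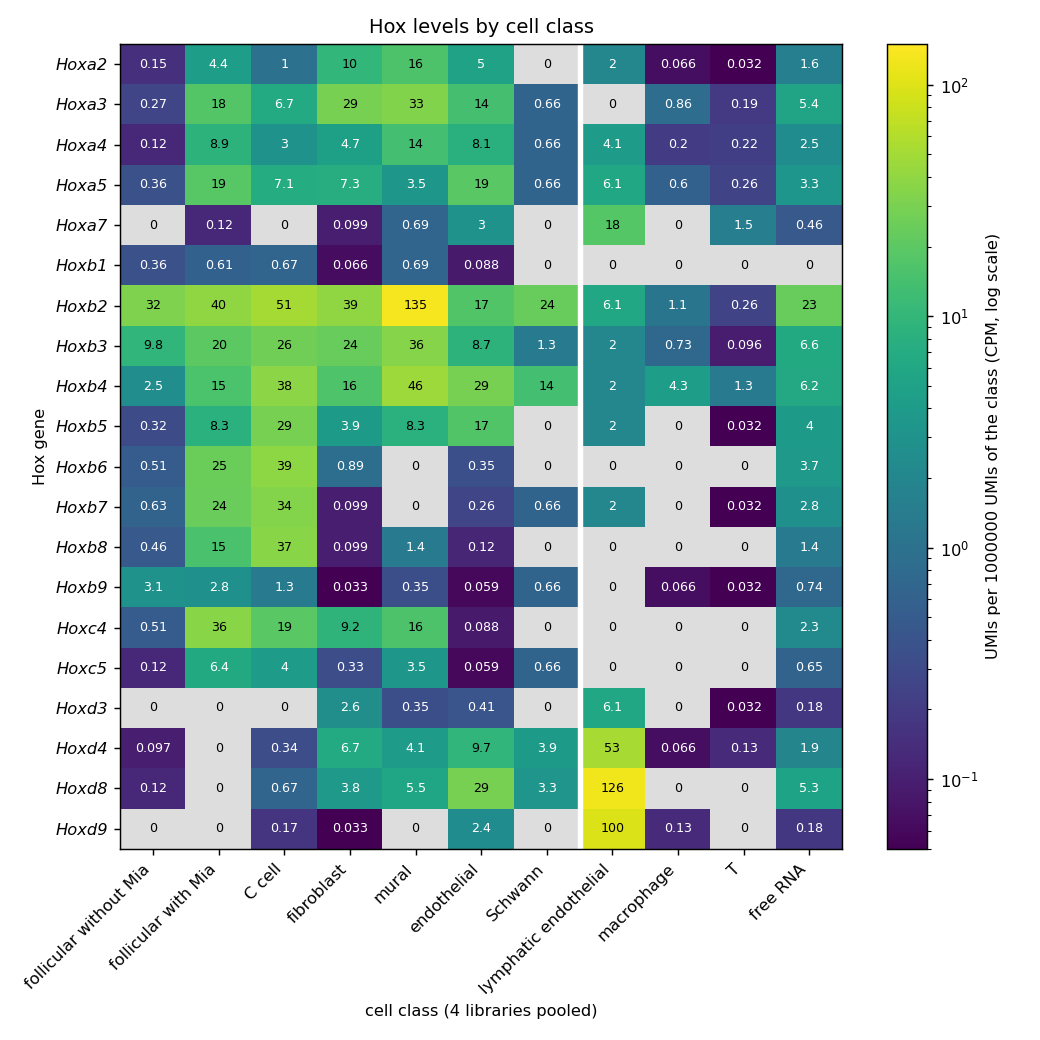
Level of the reported Hox genes with at least 20 UMIs, in UMIs per 1000000 UMIs of the class with the libraries pooled, on a log colour scale with the value printed in each cell and grey for 0 UMIs. Hoxb2 is present in each class left of the white line, while Hoxb6, Hoxb7 and Hoxb8 reach 14.8 CPM or more only in C cells and follicular cells with Mia.

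Which cluster and which paralog numbers made up the Hox UMIs differed between the classes. The assay counts transcript ends, so a share also depends on how well each gene's end is captured. The Hoxb cluster gave 96.4% of the Hox UMIs of follicular cells without Mia, 85.6% of those of C cells, 69.1% in mural cells, 61.5% in follicular cells with Mia, 52.6% in fibroblasts and 44.0% in endothelial cells. Endothelial cells had 25.1% of their Hox UMIs from the Hoxd cluster and 0.1% from the Hoxc cluster. Follicular cells with Mia had 20.6% from Hoxa, 17.9% from Hoxc and none from Hoxd.

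Paralogs 1 to 3, the genes active furthest toward the head, gave 82.8% of the Hox UMIs of follicular cells without Mia, 68.6% in mural cells and 66.6% in fibroblasts. They gave 34.0% in follicular cells with Mia, 28.7% in C cells and 28.3% in endothelial cells. Paralogs 6 to 8 were 36.9% of the Hox UMIs of C cells and 26.4% of those of follicular cells with Mia, against 3.4% in follicular cells without Mia and 3.1% in fibroblasts. Endothelial cells held such paralogs as well, with 989 UMIs of Hoxd8 and 101 of Hoxa7 among their 5673 Hox UMIs. The mean paralog number, weighted by UMIs, ran from 2.95 in follicular cells without Mia to 4.80 in C cells, with follicular cells with Mia at 4.41.

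**Figure D2:**
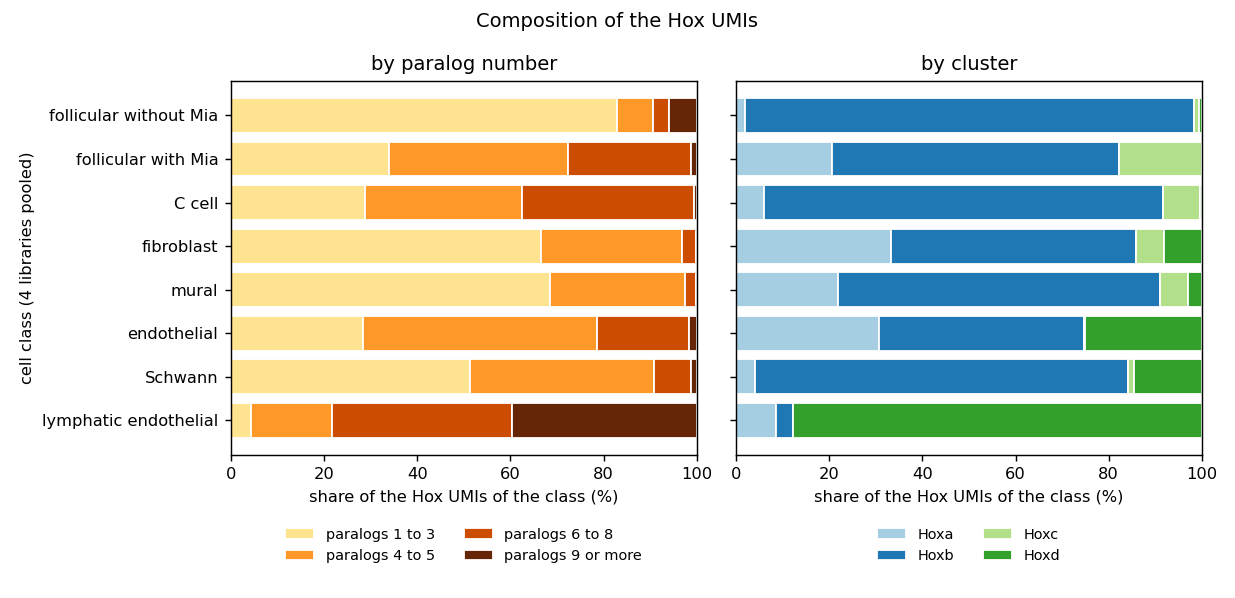
Share of the Hox UMIs of each class, in percent, by paralog number (left) and by cluster (right), libraries pooled. Follicular cells without Mia are almost wholly Hoxb and 82.8% paralogs 1 to 3, whereas C cells and follicular cells with Mia hold 36.9% and 26.4% paralogs 6 to 8. Endothelial cells also hold paralogs 6 to 8, mostly as Hoxd8.

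Hoxb2 and Hoxb3, which pattern the hindbrain and the arches below it, had the most UMIs of the Hox genes in follicular cells without Mia. In these cells Hoxb2 was at 32.5, 33.7, 28.3 and 32.2 CPM and Hoxb3 at 7.53, 10.0, 10.5 and 14.3 CPM. Free RNA held 23.1 CPM of Hoxb2 and 6.55 CPM of Hoxb3, and macrophages 1.13 and 0.731 CPM. The part of free RNA in the follicular values was not tested.

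For the tests, the UMIs of each class were summed within each library, and 15 of the 39 members passed the filter on low counts, several of them only through the class where they are high. With no filter, 33 members could be fitted. Follicular cells without Mia had 11 of the 15 lower and 1 higher than fibroblasts at an adjusted p of 0.05, where 31.4% of the 13501 genes tested were lower and 32.1% higher (edgeR's quasi-likelihood test with Benjamini-Hochberg adjustment, library as block). Hoxa3, a gene needed for the thymus, the parathyroids and the position of the C cells, was at 28.9, 26.4, 29.9 and 31.5 CPM in fibroblasts and at 0.243, 0.303, 0.238 and 0.308 CPM in follicular cells without Mia. The groups did not overlap, with a log2 fold change of -6.64 ± 0.30 (SE, adjusted p = 8.71e-17).

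Further members of paralog groups 2, 4, 5 and 8 were lower in follicular cells without Mia. The log2 fold change was -5.90 ± 0.41 for Hoxa2, the gene that patterns the second arch, -5.80 ± 0.44 for Hoxd4, -5.10 ± 0.51 for Hoxa4, -4.72 ± 0.46 for Hoxd8, -4.22 ± 0.39 for Hoxa5 and -4.14 ± 0.34 for Hoxc4. From Hoxb5 to Hoxb2 the distance shrank, which did not hold for Hoxb6 to Hoxb8. It was -3.54 ± 0.36 for Hoxb5, -2.66 ± 0.19 for Hoxb4, -1.22 ± 0.19 for Hoxb3 and -0.38 ± 0.17 for Hoxb2 (adjusted p = 0.0463 for the last).

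The Hoxb2 difference and that of Hoxb7, the 1 member that was higher (log2 fold change 2.05 ± 0.73, adjusted p = 0.0167, from 26 UMIs against 3), were lost under several other settings. Without the library labelled day 20 or the one labelled day 30, the adjusted p of Hoxb2 was 0.152 and 0.128. Without the library labelled day 5 or the one labelled day 30, that of Hoxb7 was 0.0691 and 0.0746.

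Hoxb9, a gene of the trunk, was held mostly by follicular cells. It was at 2.14, 4.70, 2.62 and 4.21 CPM in follicular cells without Mia, with 127 UMIs in all, and at 2.94, 3.34, 0 and 3.28 CPM in those with Mia. Fibroblasts held 1 UMI, and the ratio of follicular cells without Mia to fibroblasts was 93.4 (exact 95% counting interval 16.5 to 3717). Free RNA was at 0.738 CPM. Hoxb9 did not pass the filter on low counts. In the fit with no filter its log2 fold change between these classes was 5.78 ± 0.72 (edgeR, adjusted p = 2.11e-10), a fitted value that rests on 1 UMI in fibroblasts. Of its neighbours, Hoxb6 and Hoxb8 were not called between the same classes (-0.95 ± 0.49 and 1.90 ± 0.94).

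Follicular cells with Mia differed from those without in a block of Hox genes. Hoxa2 to Hoxa5, Hoxb3 to Hoxb8, Hoxc4 and Hoxc5 were higher, 12 of the 15 members tested, and 0 were lower. Over all 13501 genes 0.778% were higher and 0.200% lower, 105 and 27 genes. Without the library labelled day 10 or the one labelled day 20, 72 genes were higher and 5 lower, with 11 of 15 members higher. The filter kept some members, such as Hoxb6, Hoxb7 and Hoxb8, through the classes where they are high. With no filter on low counts 12 of 33 members were higher, beside 156 of 22837 genes. With cells of at most 10000 UMIs, 7 of the 12 members that could be tested were higher, beside 38 of 10425 genes. Purer cells had at least 3 markers of their own class and at most 1 of each other class. They left 39, 1, 6 and 0 follicular cells with Mia. Since a sum needed at least 10 cells, only the library labelled day 5 remained with Mia, and no calls are counted there. Hoxb2 was not called, with a log2 fold change of 0.23 ± 0.18 (adjusted p = 0.861).

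Hoxc4, a gene of the neck region, had the largest fold of the called members. In follicular cells with Mia it was at 37.1, 48.8, 50.3 and 25.5 CPM. In those without it was at 0.534, 0.455, 0.713 and 0.410 CPM. The groups did not overlap, and the log2 fold change was 6.04 ± 0.33 (edgeR, adjusted p = 1.50e-11). Hoxc5 followed it in the same cluster, at 8.08, 8.69, 3.15 and 4.91 CPM against 0.146, 0, 0 and 0.205 CPM. It rose by 5.41 ± 0.53 on the log2 scale, and 166 bases of its exons are shared with Hoxc10, so its counts are less certain.

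Of the Hoxa cluster, Hoxa3 was at 10.6, 28.1, 16.8 and 19.7 CPM with Mia and at 0.243, 0.303, 0.238 and 0.308 CPM without, a log2 fold change of 5.78 ± 0.33 (edgeR, adjusted p = 3.27e-12). Hoxa5, known for its part in lung and thyroid development, was at 15.8, 28.1, 9.44 and 19.3 CPM against 0.340, 0.303, 0 and 0.615 CPM, and rose by 5.42 ± 0.39. Each library with Mia stood above each without. Hoxa4 (9.18, 14.7, 2.10 and 7.86 CPM against 0.194, 0, 0 and 0.103 CPM) rose by 5.83 ± 0.53. For Hoxa2 the values were 4.77, 5.35, 5.24 and 3.28 CPM against 0.194, 0, 0 and 0.205 CPM, and the log2 fold change was 4.59 ± 0.52.

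Within the Hoxb cluster the fitted change grew from Hoxb2 to Hoxb6. Hoxb3 was at 14.0, 26.1, 24.1 and 20.3 CPM with Mia and rose by 0.88 ± 0.21 (adjusted p = 0.0376), a call that was lost when any 1 library was left out, with adjusted p of 0.0609, 0.552, 0.0805 and 0.0708. Hoxb4 was at 9.55, 21.4, 18.9 and 16.4 CPM against 2.09, 3.34, 3.33 and 2.46 CPM, and rose by 2.47 ± 0.22. Hoxb5 rose by 4.54 ± 0.38, from 0.340, 0.152, 0.238 and 0.410 CPM to 8.81, 10.0, 10.5 and 6.22 CPM.

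The trunk-type members Hoxb6, Hoxb7 and Hoxb8 were far higher in follicular cells with Mia. Hoxb6 was at 34.5, 36.1, 19.9 and 12.1 CPM against 0.583, 0.455, 0.476 and 0.410 CPM, a log2 fold change of 5.56 ± 0.37. Hoxb7 was at 36.0, 28.1, 22.0 and 11.5 CPM against 0.923, 0.152, 0.238 and 0.513 CPM (5.30 ± 0.38). Hoxb8 was at 16.2, 18.7, 30.4 and 6.88 CPM against 0.486, 0, 0.713 and 0.615 CPM (4.93 ± 0.50). No library of one group overlapped the other for these 3 genes, and the library labelled day 30 was the lowest of the 4 with Mia for each of them. With purer cells only the library labelled day 5 had enough cells with Mia, so no call is read there. Hoxb6 and Hoxb7 stayed higher, while the log2 fold change of Hoxb8 was -2.17 ± 3.95. Hoxd4 and Hoxd8 had 0 UMIs in follicular cells with Mia and 4 and 5 UMIs in those without.

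**Figure D3:**
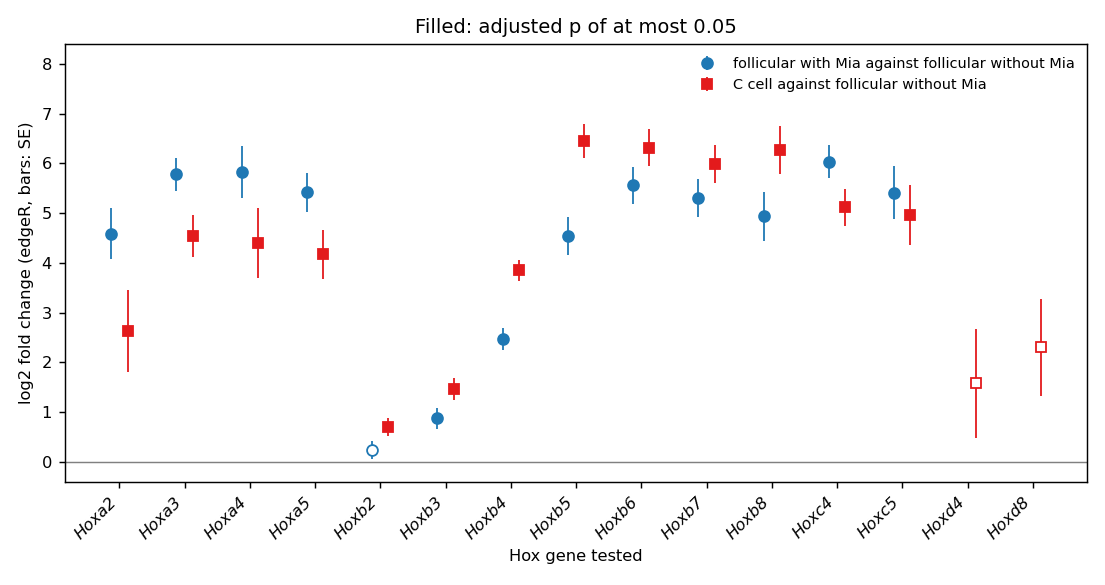
Log2 fold change of the tested Hox genes (points, with bars for the SE) in follicular cells with Mia and in C cells, each against follicular cells without Mia, with filled points for an adjusted p of at most 0.05. Hoxd4 and Hoxd8 are not drawn for cells with Mia, where they have 0 UMIs, and Hoxb2 lies at 0.23 and 0.71 while Hoxc4 lies at 6.04 and 5.11.

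The levels followed the number of Mia UMIs, in bins chosen after the values were seen and given without a test. Summed over Hoxa3 to Hoxa5, Hoxb4 to Hoxb8, Hoxc4 and Hoxc5, the level was 5.81 CPM in the 3891 cells without Mia, 10.8 CPM in the 348 cells with 1 Mia UMI and 48.9 CPM in the 222 cells with 2 to 4. It was 195 CPM in the 109 cells with 5 to 19 and 548 CPM in the 52 cells with at least 20. Not every library rose at every step. The library labelled day 20 went from 5.94 CPM without Mia to 2.43 CPM at 1 Mia UMI, and from 172 CPM at 2 to 4 to 147 CPM at 5 to 19, where it had 7 cells. The library labelled day 30 had 14.4 CPM at 1 Mia UMI and 9.55 CPM at 2 to 4. Over the same bins Hoxb2 went from 32.2 to 34.7, 36.0, 43.4 and 47.1 CPM, and its counting intervals at neighbouring bins overlapped.

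**Figure D4:**
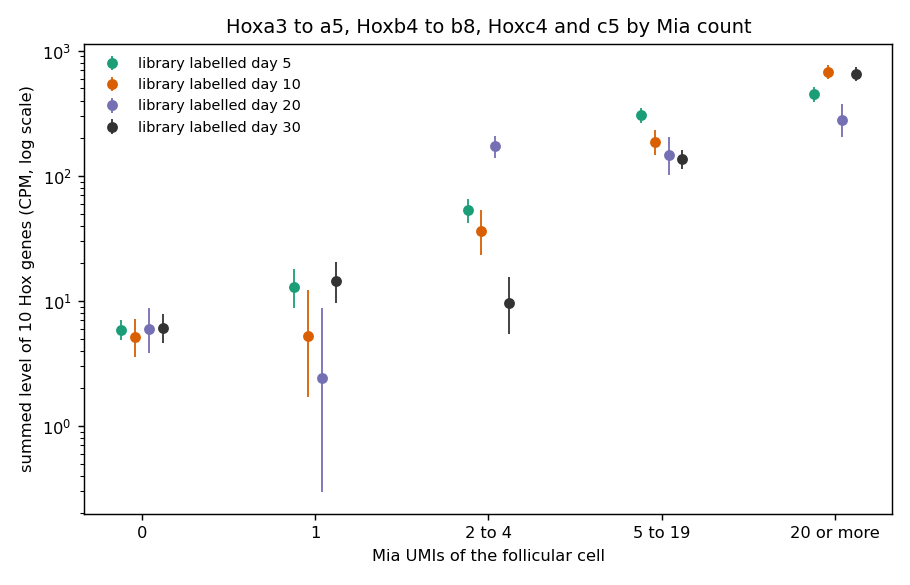
Summed level of 10 Hox genes (log scale) in follicular cells by their number of Mia UMIs, for each library, with exact 95% Poisson intervals. The libraries lie between 5.16 and 6.05 CPM without Mia and between 279.5 and 677 CPM at 20 or more Mia UMIs. The genes were taken from those called higher in cells with Mia, so a step up from cells without it follows from the choice.

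Single cells carried several of these genes together. Of the 383 follicular cells with Mia, 96 had a UMI of Hoxa3 to Hoxa5, 131 of Hoxb6 to Hoxb8 and 104 of Hoxc4 or Hoxc5. At least 2 of these 3 groups were seen in 111 cells and all 3 in 70, while 233 cells, with a median of 17327 UMIs, had none. Among the 3891 cells without Mia, 18 had at least 2 groups and 7 all 3. A cell with 0 UMIs of these genes may still express them at a low level.

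The 111 cells with at least 2 groups came from all libraries (56, 22, 13 and 20 cells). As a description of cells split by their Hox UMIs, which was chosen after the values were seen, they had 32248 CPM of Tg, the thyroid hormone precursor, against 42264 CPM in the 233 cells with none. Pax8, a factor of follicular cells, was at 334 and 360 CPM. Pax9, a factor of the pharyngeal pouches, was at 103 CPM against 4.72 CPM, and Grp, a signalling peptide, at 3501 against 307 CPM. Mia itself was at 1252 and 154 CPM.

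Markers of other classes were read beside these Hox genes. The summed level of the 7 C cell markers, of which 5 were detected, was 120 CPM (77.6 to 177 over libraries) in follicular cells with Mia. It was 156 CPM (79.4 to 187) in those without and 165605 CPM in C cells. Calca, the calcitonin gene, was at 217 CPM in the 111 cells with at least 2 Hox groups, 41.0 CPM in the 233 cells with none, 143 CPM in cells without Mia and 163811 CPM in C cells. Parathyroid markers were at 155 CPM (26.1 to 400) with Mia and 38.1 CPM (31.4 to 45.2) without, and these ranges overlapped. The same list summed to 2106 CPM in fibroblasts and 870 CPM in C cells, so it is not particular to parathyroid cells. Schwann markers were at 281 CPM (241 to 377) with Mia and 182 CPM (168 to 216) without. Lymphatic endothelial markers were at 13.3 and 5.47 CPM, while macrophage markers went the other way, at 26.3 and 38.3 CPM. The 130 parathyroid cells had 0 UMIs of Hoxb6, Hoxb7, Hoxb8 and Hoxc4, which allows up to 1.52 CPM of each. The part of parathyroid transcripts in the result was not tested. Depth moved with Mia, as the median was 15112 UMIs with Mia and 7362 without, and its part in the result was not tested. In cells thinned to 2000 UMIs, 13.5% of those with Mia and 0.302% of those without had a UMI of Hoxb6, Hoxb7 or Hoxb8.

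C cells also had Hox genes raised against the same follicular cells without Mia. Both comparisons share those cells, which by itself makes their lists alike, and the overlap was not tested. Of the 15 members tested, 13 were higher and 0 lower, where 18.0% of all genes tested were higher and 21.9% lower. The filter kept some members through the classes where they are high, C cells among them. With no filter on low counts 13 of 33 members were higher, beside 3034 of 22837 genes. With cells of at most 10000 UMIs, 7 of 12 members were higher, beside 1222 of 10425 genes. In the main fit the split over all genes depends on the scaling. DESeq2 called 2987 genes higher and 1972 lower, against 2431 and 2962 here, and it moved the median log2 fold change of all genes from -0.10 to 0.04. The direction of the 13 Hox genes was the same under both scalings.

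Among the members that passed the filter Hoxb5 showed the widest step, at 28.8, 22.7, 37.7 and 36.2 CPM in C cells, a log2 fold change of 6.45 ± 0.33 (edgeR, adjusted p = 1.89e-13). Hoxb6 was at 44.8, 28.3, 42.5 and 41.8 CPM (6.32 ± 0.37), Hoxb8 at 21.7, 41.4, 47.4 and 53.1 CPM (6.27 ± 0.48), and Hoxb7 at 32.0, 32.3, 38.9 and 38.4 CPM (5.99 ± 0.38). All C cell libraries stood above all follicular libraries without Mia for these genes. Hoxb4 rose by 3.85 ± 0.21, to 33.7, 41.4, 30.4 and 46.3 CPM.

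The head-end Hoxb members rose less in C cells. Hoxb3 was at 11.5, 27.3, 51.1 and 39.5 CPM and rose by 1.47 ± 0.22, with a wide spread over the libraries. Hoxb2 was steady at 51.0, 52.6, 51.1 and 46.3 CPM and rose by 0.71 ± 0.18 (adjusted p = 0.00318). Of the Hoxc cluster, Hoxc4 was at 17.3, 22.7, 17.0 and 19.2 CPM (5.11 ± 0.36) and Hoxc5 at 2.66, 3.54, 7.29 and 5.65 CPM (4.96 ± 0.61).

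The Hoxa members were low in C cells but above the follicular cells without Mia. Hoxa3 was at 3.99, 5.56, 12.2 and 11.3 CPM (4.54 ± 0.43), Hoxa5 at 2.22, 9.60, 10.9 and 10.2 CPM (4.17 ± 0.49) and Hoxa4 at 2.66, 2.53, 2.43 and 5.65 CPM (4.40 ± 0.70). Hoxa2, with 6 UMIs in all, was at 0.888, 0, 3.65 and 1.13 CPM (2.63 ± 0.82), and its adjusted p was 0.187 without the library labelled day 20.

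Set side by side, C cells and follicular cells with Mia held the block in different proportions, as pooled levels without a test. Hoxa3 in follicular cells with Mia was 2.65 times that in C cells (exact 95% counting interval 1.86 to 3.87), and Hoxc4 was 1.88 times (1.51 to 2.36). The ratio was 0.406 for Hoxb4, 0.284 for Hoxb5, 0.643 for Hoxb6, 0.701 for Hoxb7 and 0.406 for Hoxb8. Over libraries the ranges of both classes overlapped for Hoxa3, Hoxb6, Hoxb7 and Hoxb8, and did not for Hoxb4, Hoxb5 and Hoxc4. In C cells 225 of 427 cells had a UMI of Hoxb6 to Hoxb8, 26 had one of Hoxa3 to Hoxa5, and 14 had all 3 groups.

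Fibroblasts and endothelial cells had nearly the same summed level from different genes. In fibroblasts 7 of the 15 members tested were higher and 5 lower than in endothelial cells, where 30.4% of all genes tested were higher and 28.2% lower. With cells of at most 10000 UMIs, 4 of 12 members were higher and 3 lower, beside 2736 and 2623 of 10425 genes. Among the 15 members that passed the filter, Hoxd8 showed the largest step toward endothelial cells. It was at 21.0, 32.4, 27.2 and 38.6 CPM there and 3.69, 3.08, 4.13 and 4.37 CPM in fibroblasts. The groups did not overlap, and the log2 fold change of fibroblasts was -2.85 ± 0.26 (edgeR, adjusted p = 8.59e-10).

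Other members of paralog groups 4 and 5 were on the endothelial side as well. Hoxb5 was at 18.0, 16.7, 24.6 and 13.9 CPM in endothelial cells and at 2.31, 5.16, 3.82 and 3.80 CPM in fibroblasts (-2.06 ± 0.23). Hoxa5, which restrains new vessel growth in culture models, was at 17.3, 22.0, 20.7 and 18.1 CPM against 5.39, 8.14, 8.59 and 7.32 CPM (-1.31 ± 0.26). Hoxb4 was at 29.1, 30.5, 29.0 and 27.8 CPM against 15.4, 16.5, 14.6 and 17.2 CPM (-0.75 ± 0.16). Hoxa4, at 7.06, 7.94, 14.9 and 7.90 CPM against 5.54, 5.16, 5.09 and 3.71 CPM, had the weakest call of the 5 (-0.75 ± 0.30, adjusted p = 0.0363). It was not called when the library labelled day 10, day 20 or day 30 was left out, with adjusted p of 0.0582, 0.0877 and 0.133.

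The fibroblast side held the genes of paralog groups 2 and 3 and the Hoxc genes. Hoxb2 was at 36.5, 32.7, 40.7 and 46.8 CPM in fibroblasts and at 16.9, 18.1, 19.2 and 15.7 CPM in endothelial cells (1.30 ± 0.17), and Hoxb3 at 17.7, 23.4, 24.8 and 27.3 CPM against 5.03, 9.70, 17.8 and 10.6 CPM (1.39 ± 0.19). Hoxa2 was at 8.77, 9.13, 11.4 and 11.7 CPM against 3.30, 5.98, 7.61 and 5.73 CPM (1.04 ± 0.26), and Hoxa3 had 11.0, 17.4, 15.2 and 15.7 CPM in endothelial cells (1.13 ± 0.18). In these genes only Hoxb3 had a fibroblast library within the range of the endothelial libraries.

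Hoxc genes were all but missing from endothelial cells. Hoxc4 had 277 UMIs in fibroblasts, at 7.69, 10.3, 13.0 and 7.79 CPM, and 3 UMIs in endothelial cells, a ratio of 104 (exact 95% counting interval 35.3 to 508). Hoxc5 had 10 and 2 UMIs, a ratio of 5.64 (1.20 to 53.0). Hoxb6, with 27 and 12 UMIs, rose by 1.51 ± 0.54 in fibroblasts (adjusted p = 0.0199), which was 0.206 without the library labelled day 10. Hoxd4 was not called (-0.46 ± 0.25, adjusted p = 0.125), at 8.64, 11.2, 9.79 and 9.68 CPM in endothelial cells and 6.31, 7.05, 5.72 and 6.84 CPM in fibroblasts, and shares 388 exon bases with Hoxd3. Hoxa7 reached 2.78, 2.16, 4.71 and 3.69 CPM in endothelial cells, where 101 of its 107 UMIs over the classes lay, but did not pass the filter. With no filter Hoxa7 was lower in fibroblasts (-4.46 ± 0.68, adjusted p = 1.49e-07).

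**Figure D5:**
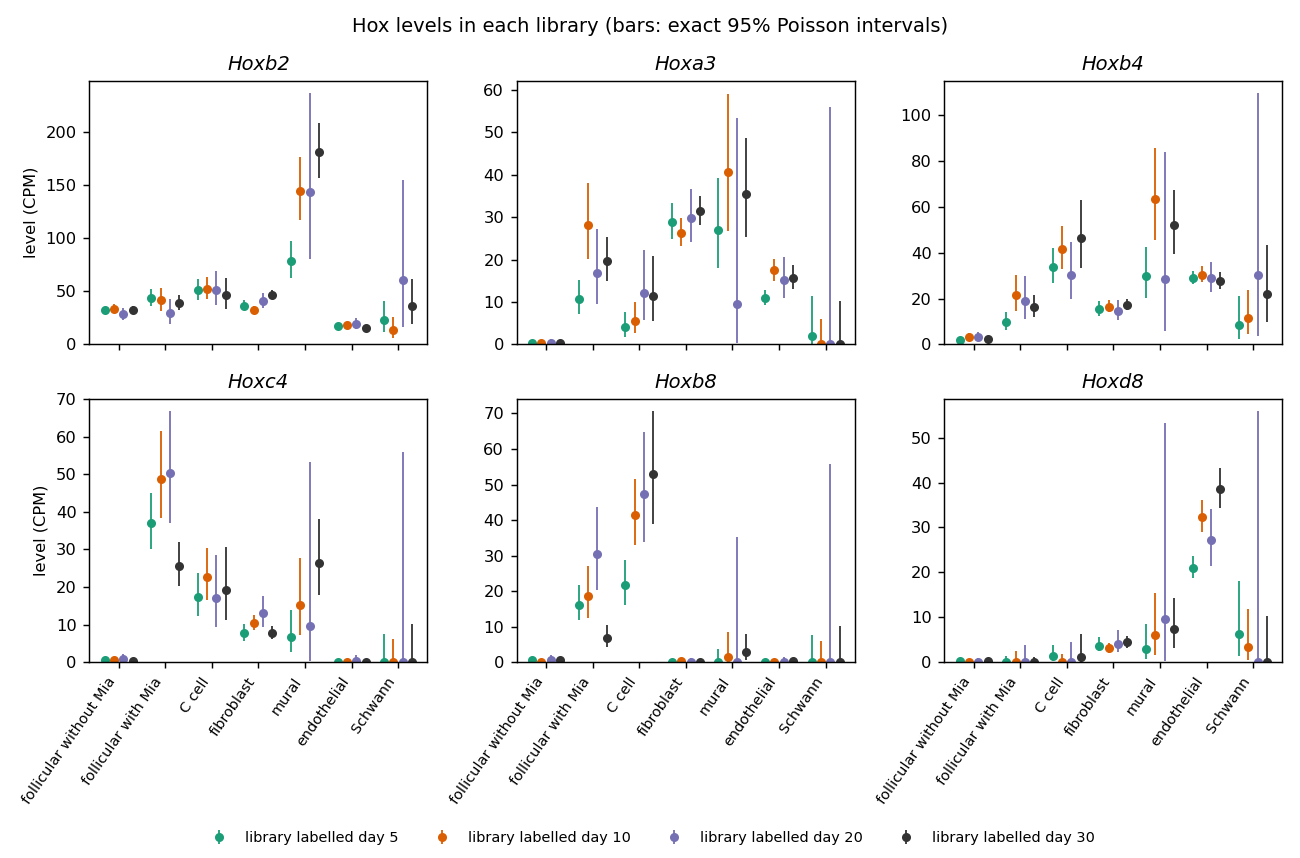
Level of selected Hox genes (UMIs per 1000000 UMIs of the class) in each class and library, with exact 95% Poisson intervals that cover counting error only. Hoxb8 is at 6.88 CPM or more in every library of C cells and of follicular cells with Mia, and at 2.74 CPM or less in the libraries of the other classes.

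Within the endothelial class, Hoxb5 was uneven between clusters, a description chosen after the values were seen. Clusters led by Fabp4, Aqp1 and Vwf and by Cldn5, Tm4sf1 and Gja4 had 6.34 and 4.56 CPM of Hoxb5. The 2 largest endothelial clusters had 22.7 and 17.9 CPM. Hoxb2 showed no such step, at 21.9 and 22.3 CPM against 17.5 and 14.7 CPM.

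Lymphatic endothelial cells, of which 77 were found, were a further class with a Hox makeup of its own, outside the 7 classes. Hoxd genes gave 87.8% of their Hox UMIs, and the mean paralog number was 7.56. Hoxd8 was at 126 CPM, Hoxd9 at 99.9 CPM and Hoxd4 and Hoxd10 at 53.0 CPM each. Hoxd9 was 41.1 times its level in the endothelial class (exact 95% counting interval 28.2 to 59.1). Hoxd10 had 26 UMIs against 0 of the 34131275 UMIs of the endothelial class, so with a floor of 3 counts there it was at least 603-fold higher. No test was made, since 1 library held a single such cell.

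Mural cells had the highest Hoxb2 of the classes. Its level was 78.4, 145, 144 and 182 CPM, against 36.5, 32.7, 40.7 and 46.8 CPM in fibroblasts, and the groups did not overlap (log2 fold change 1.57 ± 0.19, edgeR, adjusted p = 1.21e-07). Of the 15 members tested 5 were higher than in fibroblasts and 0 lower, where 15.9% of all genes tested were higher and 19.6% lower. Hoxb4 was at 30.0, 63.3, 28.7 and 52.0 CPM (1.31 ± 0.20), Hoxa4 at 11.6, 13.6, 38.3 and 13.7 CPM (1.41 ± 0.40) and Hoxc5, with 10 UMIs in each class, rose by 3.05 ± 0.70.

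Some mural calls were thin, and with purer cells 1 of 8 members tested was called, beside 2359 of 10110 genes. Hoxb5, the other member called (0.96 ± 0.37, adjusted p = 0.0491), was not called when any 1 library was left out, with adjusted p from 0.055 to 0.440. Hoxa4 had an adjusted p of 0.0800 without the library labelled day 30. A lower member was called in 3 settings. Hoxa5 was lower without the library labelled day 5 (-1.85 ± 0.62, adjusted p = 0.0268) and with no filter (-1.38 ± 0.48, adjusted p = 0.0262), and Hoxd4 was lower without the library labelled day 30 (-1.80 ± 0.62, adjusted p = 0.0358). Hoxa3 was not called (-0.05 ± 0.23, adjusted p = 0.963), at 27.1, 40.7, 9.57 and 35.6 CPM in mural cells. The library labelled day 20 held 21 mural cells, and its values rest on 0 to 15 UMIs a gene.

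The 2 mural clusters differed in Hox levels, described here after the values were seen. The cluster of 296 cells led by Rgs5, Mgp and Postn held 219 CPM of Hoxb2 and 35.2 CPM of Hoxc4, and the cluster of 314 cells led by Acta2, Tagln and Myl9 held 87.2 and 5.42 CPM. In 3 libraries, labelled day 5, day 10 and day 30, the first cluster was above the second for Hoxb2, at 137, 227 and 232 CPM against 71.9, 67.3 and 121 CPM. In the library labelled day 20 both were close, at 145 and 143 CPM from 4 and 11 UMIs. Hoxa3 was at 25.7 and 36.8 CPM with overlapping intervals.

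Schwann cells had the fewest Hox UMIs of the classes, 76 in all among 1520028 UMIs, of which Hoxb2 gave 36 and Hoxb4 gave 21. Their level of 50.0 CPM was close to the 51.8 CPM of follicular cells without Mia. Against fibroblasts 8 of the 15 members tested were lower and 0 higher, where 17.6% of all genes tested were lower and 13.8% higher. With purer cells, 8 members could be tested and 0 were called (edgeR, 1 at an unadjusted p under 0.05), beside 1117 of 10110 genes. Hoxa2, Hoxc4 and Hoxb5 had 0 UMIs, which with a floor of 3 counts puts them at least 5.16-fold, 4.64-fold and 1.99-fold lower. Hoxa3 had 1 UMI, and its level in fibroblasts was 44.2 times that in Schwann cells (exact 95% counting interval 7.92 to 1749). For Hoxb3, with 2 UMIs, the ratio was 18.0 (4.96 to 149).

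Hoxb2 and Hoxb4 were the Hox genes of Schwann cells with over 10 UMIs. Pooled over libraries Hoxb2 was at 23.7 CPM, close to its level in free RNA given above. The part of free RNA in the Schwann values was not tested. Hoxb4, at 8.25, 11.5, 30.3 and 22.1 CPM, was not called (-0.42 ± 0.31, adjusted p = 0.338), and Hoxb2, at 22.7, 13.2, 60.6 and 35.9 CPM, was lower (-0.90 ± 0.29, adjusted p = 0.0171). The library labelled day 20 held 24 Schwann cells. Its values rest on 2 UMIs of Hoxb4 (3.67 to 109 CPM) and 4 of Hoxb2 (16.5 to 155 CPM). Without the library labelled day 10 the count of lower members was 5, beside 1846 of 13661 genes. Hoxb2 was not among them (edgeR, adjusted p = 0.158).

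Of 44 cofactors, retinoid genes and regulators of Hox clusters, 32 were tested. Between follicular cells with and without Mia 3 were higher and 0 lower: Pax9 by 4.11 ± 0.30, Aldh1a1, an enzyme that makes retinoic acid, by 2.16 ± 0.43, and Meis1, a partner of Hox proteins on DNA, by 0.98 ± 0.24 (edgeR, adjusted p = 0.0357), where 0.778% of all genes tested were higher. Pax9 was called in every setting tried that kept more than 1 library with Mia. Aldh1a1 was not called without the library labelled day 5 (adjusted p = 0.0764), and Meis1 was not called without the library labelled day 5, day 10 or day 20 (adjusted p = 0.532, 0.218 and 0.0559). Neither was called with cells of at most 10000 UMIs, purer cells, thinned cells, no library block or Mia at 1 or more UMIs. In C cells against follicular cells without Mia 13 were higher and 2 lower, beside 18.0% and 21.9% of all genes. Among the higher were Pax9 (5.08 ± 0.30) and Meis2 (3.67 ± 0.30). Aldh1a2, the main retinoic acid enzyme of the embryo, had 311 UMIs (52.4 CPM) in C cells, 3 in follicular cells without Mia and 0 in those with Mia.

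The same list was read in the other comparisons. Against endothelial cells, fibroblasts had 16 of the 32 higher and 7 lower, beside 30.4% and 28.2% of all genes, with Meis1 higher by 3.71 ± 0.18, Meis3 by 4.99 ± 0.29, and Aldh1a1 at 1423 UMIs against 3. In follicular cells without Mia against fibroblasts 7 were higher and 19 lower, beside 32.1% and 31.4% of all genes, with Meis1 lower (-3.61 ± 0.18) and Tbx3 (3.46 ± 0.21) and Isl1 (3.90 ± 0.26) higher. Mural cells had 4 higher and 11 lower than fibroblasts, beside 15.9% and 19.6% of all genes, with Tbx3 at 2.64 ± 0.24. Schwann cells had 3 higher and 9 lower, beside 13.8% and 17.6% of all genes, with Meis1 at -3.09 ± 0.33.

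Hoxb1, Hoxd3 and Hoxd9 also had 20 or more UMIs. Hoxb1 had 31 UMIs, of which 15 were in follicular cells without Mia at 0.365 CPM. Hoxd3 was at 2.58 CPM in fibroblasts, which held 78 of its 93 UMIs, and Hoxd9 at 2.43 CPM in endothelial cells, which held 83 of its 85. The 12 members with 1 to 19 UMIs ran from 1 UMI each of Hoxa10, Hoxa13, Hoxc8, Hoxc9, Hoxc13, Hoxd10 and Hoxd13 to 10 UMIs each of Hoxc6 and Hoxd1. The tail-end members of paralog groups 10 to 13 were thus at or close to 0 in each of the 7 classes.

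The promoters of Hoxb8 and Hoxd8 are shown because these genes mark the C cell and the endothelial side of the pattern, a choice made after their values were seen. Each run covers 250 bases before and 50 after the start of the gene in RefSeq on GRCm38.p6, plus strand, with the core motif TAAT, which homeodomains bind, in capitals on either strand (as TAAT or ATTA).
Hoxb8, chr11:96281655-96281954: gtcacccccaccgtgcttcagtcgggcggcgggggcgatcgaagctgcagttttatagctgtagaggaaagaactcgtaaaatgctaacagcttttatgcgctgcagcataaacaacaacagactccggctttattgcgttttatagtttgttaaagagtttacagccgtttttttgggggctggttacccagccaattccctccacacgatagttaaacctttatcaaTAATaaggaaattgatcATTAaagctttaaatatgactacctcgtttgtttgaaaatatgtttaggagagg
Hoxd8, chr2:74704365-74704664: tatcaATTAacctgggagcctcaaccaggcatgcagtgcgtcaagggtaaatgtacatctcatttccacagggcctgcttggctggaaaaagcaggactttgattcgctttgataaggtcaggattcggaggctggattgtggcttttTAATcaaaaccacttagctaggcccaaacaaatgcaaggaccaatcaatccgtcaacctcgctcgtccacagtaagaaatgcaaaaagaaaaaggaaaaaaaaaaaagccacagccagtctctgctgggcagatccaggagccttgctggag
Each held 2 matches. The motif was in 19 of the 24 Hox promoters in the RefSeq table, which cover 22 Hox genes, and in 58.03% of all 32851 promoters of the same length, so a match by itself says little about a gene.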

How the data were processed

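The authors aligned the reads to mm10 with CellRanger and deposited raw counts of UMIs for each gene in each droplet barcode, with no cell filter or normalization. Whether counting used strand is not given in the sources used here. The labels' processing notes also name Seurat 3.6.3 and 3.1.4. A second deposited table of raw counts lists barcodes the authors took as cells. Only its barcodes were used, each placed in the library with the most of its UMIs.

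Cells had at least 200 UMIs, at most 10% mitochondrial and at most 5% hemoglobin UMIs. The 6% with the highest Scrublet scores in each library were removed, since the automatic threshold marked under 0.1% in 3 libraries. The limit of 10000 UMIs that the study used was an alternative. Cells were clustered in scanpy 1.11.5 on 3000 variable genes without the Hox and list genes (30 principal components, 15 neighbours, Leiden resolution 2.0). A cluster was named from at least 3 markers, by a rule settled after the clusters were seen. The follicular split at 0 and at least 2 Mia UMIs followed from earlier results.

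Class sums per library, 4 libraries a class, entered 1 fit in edgeR 4.0.16 (TMM, filterByExpr, quasi-likelihood test, Benjamini-Hochberg adjustment over 13501 genes, R 4.3.3), with the library as block because classes of a library share mice and droplets. The SE is the log2 fold change over the root of the F statistic. p-values are not independent of the choice of classes, which was made on the same cells. DESeq2 1.42.0 was an alternative, and the fit was tested on simulated data. Of the 2-fold changes put in, it recovered 43% for Schwann cells, 48% for mural cells and 60% to 73% in the other comparisons. For 4-fold changes these were 72%, 79% and 89% to 98%. A member not called may thus still differ, most of all in Schwann and mural cells. A level is the number of UMIs per 1000000 of the class. Intervals are exact 95% Poisson or binomial intervals, those of ratios are conditional binomial, and all cover counting error only. The members, gene lists and tests were chosen with earlier results of these data known. Members with at least 20 UMIs were described, those with 100 in a class by library, and at most 3 other genes per comparison by smallest adjusted p. Trajectories, spatial data and other experiments of the study were not analysed here, and some genes, among them 1 Hox member, are not reported here.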

Additional observations from a re-analysis of the deposited data

Results flagged for a closer look

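Besides the members, 6 noncoding transcripts of the Hox loci stood above their level in macrophages and T cells, in rows the comparisons did not use. Hotairm1 was highest in mural cells at 59.0 CPM, with 26.1 CPM in follicular cells with Mia and 0.559 CPM in those without. Hoxb3os was at 107 CPM in mural cells and at 48.3 CPM in follicular cells without Mia, against 0.513 CPM in T cells. Hoxb5os was at 22.5 CPM in follicular cells with Mia, 21.0 CPM in C cells and 0.486 CPM in follicular cells without Mia. Hoxd3os1 was at 27.7 CPM in endothelial cells and 2.41 CPM in fibroblasts. Hoxaas2 and Hoxaas3 were highest in mural cells, at 7.25 and 11.7 CPM. Since the use of strand in counting is not given, UMIs of an antisense transcript and of the gene it overlaps cannot be told apart. No Hox gene moved in opposite directions in the libraries of a comparison beyond counting error, over 155 pairs of gene and comparison. A pair was counted when it had any UMI, and pairs with few UMIs could hardly show such a change.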

How the results depend on the processing

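Each comparison was refitted with DESeq2, other size factors, no filter, no library block, cells of at most 10000 UMIs, doublets kept, purer cells, cells thinned to 2000 UMIs, Mia at 1 or more UMIs, and without each library. Of the 62 calls of single members, 35 were kept in every setting that tested the gene and 27 were lost in at least 1. With cells of at most 10000 UMIs, where 12 members rather than 15 could be tested, the number called was 7 rather than 12 for fibroblasts against endothelial cells, 5 as before for mural cells, 9 rather than 12 for follicular cells without Mia against fibroblasts, 7 rather than 12 with and without Mia, 7 rather than 13 for C cells and 5 rather than 8 for Schwann cells. In the same order, 5359, 3266, 6071, 45, 2496 and 3051 of all 10425 genes tested were called. With purer cells, where 8 members could be tested, the number called was 3 for fibroblasts against endothelial cells, 1 for mural cells, 3 for follicular cells without Mia against fibroblasts, 5 for C cells and 0 for Schwann cells (edgeR, 1 at an unadjusted p under 0.05). Of all 10110 genes, 4433, 2359, 4676, 1518 and 1117 were called in that order. With thinned cells, where 7 members were tested, the number called was 5, 2, 4, 4, 4 and 3, in the order given for cells of at most 10000 UMIs. Of all 7769 genes, 4131, 2418, 4458, 29, 1800 and 2107 were called. Purer cells left 39, 1, 6 and 0 follicular cells with Mia. Only the library labelled day 5 met the minimum of 10 cells a sum, so calls with and without Mia are not counted there. Leaving out the library labelled day 5, day 10, day 20 or day 30 gave 7, 5, 8 and 8 members for Schwann cells. Beside them, 3455 of 13240, 3176 of 13661, 3948 of 13646 and 3528 of 13349 genes were called. Directions reversed for Hoxb8 with and without Mia in purer cells (-2.17, from 1 library with Mia) and for Hoxa4 in C cells of at most 10000 UMIs (-2.25, adjusted p = 0.781), and the cause was not tested. The summed Hox level was 372 CPM in follicular cells with Mia of at most 10000 UMIs, and 306 CPM with purer cells, which also put C cells at 397 CPM. With at most 10000 UMIs the share of cells with a Hox UMI was 17.8% without Mia, 62.5% with Mia and 43.8% in C cells. Thinned, it was 9.52% without Mia, 31.4% with Mia, 40.2% in C cells, 26.7% in fibroblasts and 44.1% in mural cells.

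Without the library block the number of members called was 11 for fibroblasts against endothelial cells, 5 for mural cells, 11 for follicular cells without Mia against fibroblasts, 11 with and without Mia, 13 for C cells and 8 for Schwann cells. Of all 13501 genes, 6372, 3772, 7201, 69, 3752 and 3513 were called in that order. Since classes of a library share animals, the block pairs them.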
